A study of Homo sapiens with 8 samples.

Results

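Adrenomedullin (ADM) and 8 further genes of the response to low oxygen, VEGFA, HIF1A, EPAS1, EGLN1, EGLN3, BNIP3, NDRG1 and ANKRD37, were followed in multiple myeloma (MM) cell lines treated with the CDK7 inhibitor THZ1. They were taken by gene symbol as 9 of the 63677 genes in the deposited count tables, and each symbol matched a gene with an Ensembl identifier. The libraries were labelled as the human MM cell lines (HMCLs) JJN3 and H929. The cells were described as grown in the same serum-containing medium and exposed for 24 h to 50 nM THZ1 or to the solvent DMSO. There were 2 libraries in each of the 4 groups and 8 in all, each group being 1 cell line label with 1 treatment label. No change of genotype or of oxygen was named in the labels. THZ1 is a covalent inhibitor of CDK7, a kinase that phosphorylates RNA polymerase II at the start of transcription, and ADM is one of the genes that the study associated with a superenhancer in MM.

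When oxygen falls, the α subunits of the hypoxia-inducible factors, encoded by HIF1A and EPAS1, escape hydroxylation by the prolyl hydroxylases EGLN1 and EGLN3, are no longer marked by VHL for destruction, and pair with ARNT to switch on genes that carry an ACGTG or GCGTG core. ADM and VEGFA are secreted products of that program, BNIP3 acts at mitochondria in mitophagy, NDRG1 is a stress-induced cytoplasmic protein and ANKRD37 is a small ankyrin repeat protein. In myeloma, a tumor of plasma cells that grows in poorly oxygenated bone marrow, the program is known for its part in vessel growth. Oxygen acts on the α subunits mainly through protein stability, which counts of RNA do not measure.

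ADM lies at chr11:10326620-10328944 on the plus strand of GRCh37, the build of the deposited counts. The study's 3 guide RNAs against it are shown because they place the locus it acted on; they come from the study's own oligo list and were not used in the libraries counted here. Letters in capitals are the PAM read from the genome beside each guide, and each guide matched the genome at 1 site.

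sgADM-1: ctggcgcctctctgcgcggaGGG
sgADM-2: cccctggcccgggggatcgtCGG
sgADM-3: gtgtaaagttgttcgccgcgTGG

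All 3 guides lie on the plus strand inside the gene, sgADM-1 at chr11:10327072-10327091, sgADM-2 at chr11:10327717-10327736 and sgADM-3 at chr11:10328780-10328799. The middle of sgADM-1 is 461 bases from the annotated gene start, that of sgADM-2 is 1106 bases and that of sgADM-3 is 2169 bases from it. In the GENCODE annotation, sgADM-1 and sgADM-2 each fall in an untranslated exon of 2 of the 8 coding transcripts and sgADM-3 in one of 4 of them, and none falls in coding sequence.

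The bases upstream of the gene start are shown for ADM, BNIP3, ANKRD37 and EGLN3. BNIP3 and ANKRD37 hold the most copies of that core among the genes whose sequence was kept, and EGLN3 holds none. The window is the 250 bases before the start in RefSeq GRCh38.p14, written 5′ to 3′ on the gene's strand. Sequences were kept for 7 of the 9 genes. None was kept for VEGFA and NDRG1, so the ranking by copies does not cover them. Capitals mark ACGTG or GCGTG on either strand, so that CACGT and CACGC are the same motifs read from the other strand, and CACGTG counts as ACGTG on both.

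ADM (chr11:10304823-10305072, plus strand): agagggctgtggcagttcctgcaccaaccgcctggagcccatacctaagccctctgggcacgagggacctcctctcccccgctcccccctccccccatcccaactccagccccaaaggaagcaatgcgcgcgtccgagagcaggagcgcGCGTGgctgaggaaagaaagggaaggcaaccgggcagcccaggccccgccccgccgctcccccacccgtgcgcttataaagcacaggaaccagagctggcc
BNIP3 (chr10:131981924-131982173, minus strand): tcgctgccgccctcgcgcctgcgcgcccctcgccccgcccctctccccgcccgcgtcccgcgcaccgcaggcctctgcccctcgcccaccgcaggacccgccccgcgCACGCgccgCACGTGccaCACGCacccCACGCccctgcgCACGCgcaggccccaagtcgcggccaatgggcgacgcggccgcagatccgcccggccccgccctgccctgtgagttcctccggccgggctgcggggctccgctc
ANKRD37 (chr4:185396591-185396840, plus strand): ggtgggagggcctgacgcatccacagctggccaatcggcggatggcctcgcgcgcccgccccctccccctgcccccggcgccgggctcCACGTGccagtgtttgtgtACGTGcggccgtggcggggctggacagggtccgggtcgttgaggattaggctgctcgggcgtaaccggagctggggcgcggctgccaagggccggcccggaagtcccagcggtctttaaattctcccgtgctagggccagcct
EGLN3 (chr14:33951075-33951324, minus strand): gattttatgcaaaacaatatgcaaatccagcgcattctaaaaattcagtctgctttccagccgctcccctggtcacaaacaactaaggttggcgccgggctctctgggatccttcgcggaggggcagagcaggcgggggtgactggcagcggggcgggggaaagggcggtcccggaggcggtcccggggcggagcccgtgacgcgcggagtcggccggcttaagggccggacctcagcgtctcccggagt

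The ADM window held 1 GCGTG that starts 101 bases before the gene start. The BNIP3 window held 6 matches, 2 of ACGTG and 4 of GCGTG, all starting between 143 and 104 bases before the gene start. The ANKRD37 window held 3 matches of ACGTG, and EGLN1, EPAS1 and the first of the HIF1A starts held 1 match each. Over all 35116 RefSeq promoters of this length, 18.5% held ACGTG, 32.2% held GCGTG and 43.2% held either, while 7.52% held ACGTG at least 2 times. A match of 5 letters is a description of the sequence and was not tested as a binding site.

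The total count per library ranged from 17476443 to 19194371, so 3 counts, taken as the floor, stood for 0.156 to 0.172 counts per 1000000 (CPM) in the JJN3 libraries. Across genes, r between libraries with the same label was 0.9799 to 0.9902 (log2 CPM), and no pair was a copy of the other by the sampling noise of its counts. The 4 JJN3 libraries stood together, with r of 0.96 to 0.965 between THZ1 and DMSO. Libraries labelled H929 THZ1 and H929 DMSO correlated at 0.734 to 0.783, and those labelled H929 DMSO correlated with the JJN3 DMSO libraries at 0.753 to 0.773. FGFR3, which H929 cells are known to express from a translocation, was at 14117 and 13411 counts in the libraries labelled THZ1 but at 45 and 285 in those labelled DMSO. The light chain gene IGLC3 was at 24879 and 22803 counts in the H929 DMSO libraries and at 3 and 2 in the H929 THZ1 libraries, and the transcription factor gene MAF had 18006 and 16310 counts against 2729 and 2942. EPCAM went the same way, with 2391 and 2249 counts against 1 and 6. CCND1 changed less, at 1766 and 1806 counts with the DMSO label against 1540 and 1566, beside at most 2 in any JJN3 library. CCND2 had 13737 and 12324 counts against 8051 and 8178, and WHSC1 6544 and 7026 against 15702 and 16276. CD3E, listed with EPCAM as a marker of other cell types, went the other way, with 15 and 26 counts against 640 and 650. A THZ1 response and a different source of cells cannot be told apart in the libraries labelled H929, and this holds for every value below that compares their labels or sets JJN3 beside them. All 7 plasma cell markers were detected in each group when the counts of its libraries were added. SLAMF7 had only 2 counts in H929 DMSO replicate 1, below the floor, beside 174 in replicate 2. In JJN3, the summed level of the 7 markers was 1940 and 1950 CPM with DMSO and 1310 and 1340 CPM with THZ1. They did not all move that way, since PRDM1 had 3377 and 3051 counts in controls and 4011 and 3883 after THZ1, and CD38 had 324 and 360 beside 331 and 232. Between the H929 labels the sum went the other way, from 1410 and 1540 CPM under DMSO to 6970 and 6900 CPM under THZ1. CD38 departed from that sum, with 1811 and 1654 counts under DMSO against 1214 and 1171 under THZ1. Of 10 markers of other cell types, PECAM1 was at 0 in all libraries, and 4 to 5 of the 10 were detected in a group. The labels do not state that the samples came from separate cultures, so the p-values measure the spread between libraries, which may be technical.

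In JJN3, ADM, HIF1A, EGLN3 and NDRG1 rose with THZ1 and none of the 9 genes fell. A gene was called at an adjusted p under 0.05 in edgeR's quasi-likelihood test with a log2 fold change beyond 0.5, a rule that called 20.6% of the 13984 genes tested higher and 21.3% lower. The 4 of 9 called higher stand beside that 20.6%, and the 9 genes had a median log2 fold change of 0.90 against 0.00 over all genes. That 0.00 is set by the TMM scaling, which centres the typical gene, and it was -0.10 with total counts. Each rise or fall is therefore relative to the other RNA of a library, and a change in total RNA per cell was not measured. For the count of 0 lower, edgeR had 0 genes with a fall at an unadjusted p under 0.05, and DESeq2 also called 0. The summed level of the plasma cell markers was lower in the same THZ1 libraries, and its part in these changes was not tested. In bulk RNA, fewer cells of a kind and less RNA per cell cannot be told apart.

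ADM, the secreted vasodilator peptide, had 70 and 84 counts in the DMSO libraries of JJN3 and 138 and 186 in the THZ1 libraries. Both treated libraries lay above both controls, and the fitted change was 2.4-fold (log2 fold change 1.26 ± 0.193 SE, edgeR adjusted p = 0.000211). Leaving out each library in turn gave log2 fold changes of 1.10 to 1.40, each past the threshold. In CPM, scaled over all 8 libraries, ADM stood at 4.03 ± 0.489 (SD, n = 2) with DMSO and 9.16 ± 1.39 (SD, n = 2) with THZ1.

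HIF1A, the oxygen-regulated subunit, was counted 2204 and 2127 times in the control libraries and 3370 and 3723 times after THZ1. It rose 1.87-fold with no overlap between groups (log2 fold change 0.90 ± 0.0778 SE, edgeR adjusted p = 4.56e-06). EPAS1, which encodes the other α subunit, had 10 and 11 counts in controls and again 10 and 11 in treated libraries. The ratio of its scaled counts was 1.08, with a 95% exact interval of 0.564 to 2.09 that covers counting error only, so a change of EPAS1 within that range was not detectable at this depth.

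The prolyl hydroxylases differed between themselves. EGLN3 had 70 and 72 counts in the JJN3 controls and 160 and 198 after THZ1. Its rise of 2.87-fold was the largest of the 9 genes in JJN3 by fitted value (log2 fold change 1.52 ± 0.176 SE, edgeR adjusted p = 3.06e-05). For EGLN1 the controls held 1076 and 991 counts and the treated libraries 934 and 1178, so its groups overlapped (log2 fold change 0.22 ± 0.0951 SE, edgeR adjusted p = 0.0664). The level of EGLN1 per kilobase of exon was nevertheless the higher of the pair, 13.8 CPM per kb against 1.84 for EGLN3 in the THZ1 libraries.

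Among the downstream genes, NDRG1 was the most abundant, at 14793 and 14618 counts in controls and 23197 and 28334 in treated libraries. It rose with no overlap (2.00-fold, log2 fold change 1.00 ± 0.104 SE, edgeR adjusted p = 1.47e-05). VEGFA, the endothelial growth factor, gave 1177 and 1314 control counts beside 1214 and 1193 treated ones, overlapping groups with a log2 fold change of 0.15 ± 0.0914 SE (edgeR adjusted p = 0.189). BNIP3 was near the floor in JJN3, with 13 and 16 counts against 7 and 11, a ratio of 0.673 with a 95% exact counting interval of 0.352 to 1.25. ANKRD37 counts were 27 and 17 in controls and 24 and 52 after treatment, and its log2 fold change of 0.97 ± 0.394 SE missed the threshold (edgeR adjusted p = 0.0539). It gained the call in 6 of 11 alternatives, with adjusted p-values over all 11 from 0.0049 to 0.472. The ANKRD37 value turned on single libraries, since leaving 1 out moved it from 0.39, when the second THZ1 library was dropped, to 1.36, when the first was. Its exons share 429 bases with UFSP2 on the opposite strand, which had 302 to 654 counts, and whether strand was used in counting is not given, so reads of the 2 genes cannot be told apart there.

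**Figure D1:**
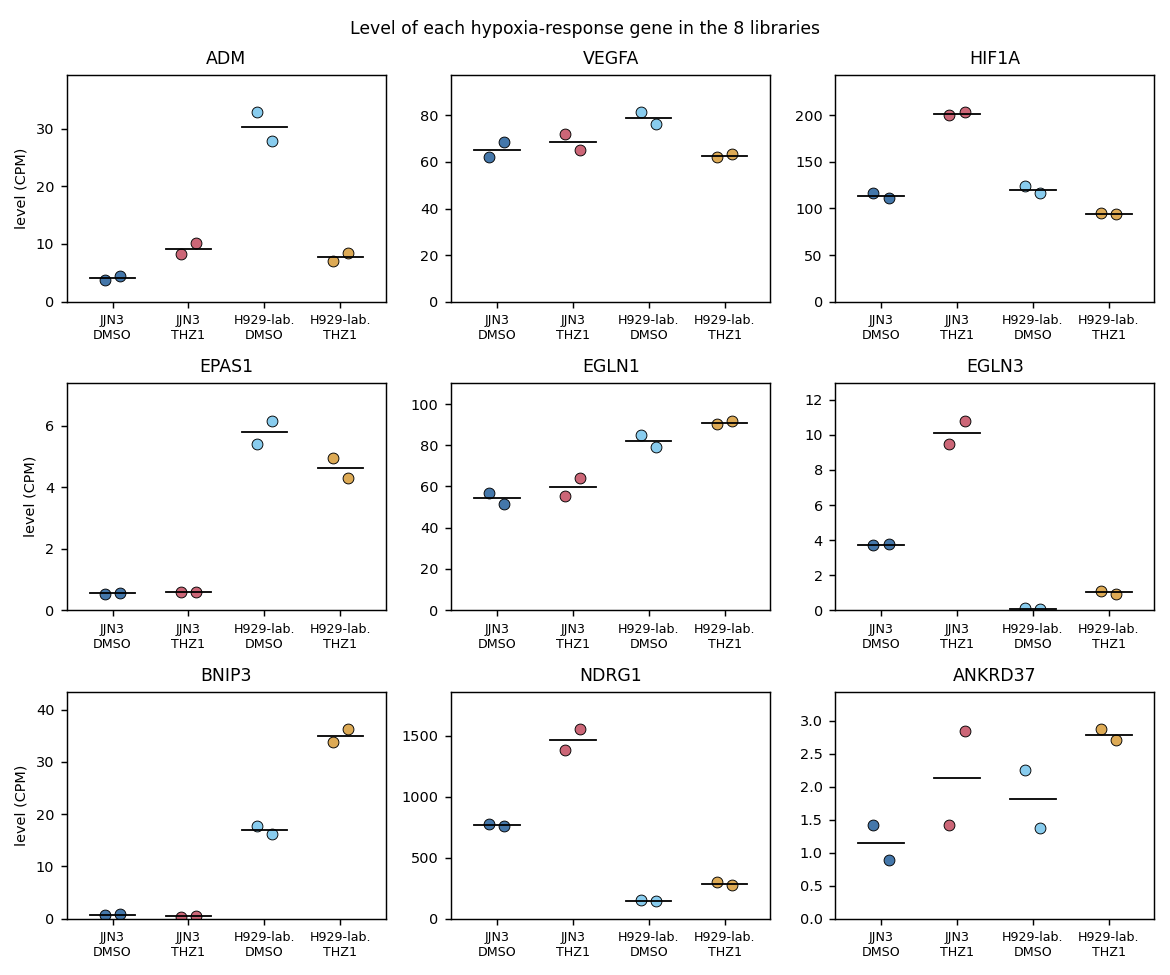
Level of each gene in CPM (linear axis from 0) in the 8 libraries, scaled over all 8. Points are libraries, 2 per group, and the line is their mean. ADM, HIF1A, EGLN3 and NDRG1 are higher with THZ1 than with DMSO in JJN3, whereas the ADM level under the H929 DMSO label is the highest of its 4 groups.

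Per kilobase of exon, the order of the 9 genes in the JJN3 controls ran from NDRG1 at 155 CPM per kb through HIF1A at 26.4, VEGFA at 17.3, EGLN1 at 12.5, ADM at 1.73, ANKRD37 at 0.98, EGLN3 at 0.678 and BNIP3 at 0.208 to EPAS1 at 0.104. NDRG1 thus had the highest level and ADM the fifth, and these 2 places were the same after THZ1, at 293 and 3.94 CPM per kb. EGLN3 and ANKRD37 lay next to each other after THZ1, at 1.84 and 1.82 CPM per kb, a gap smaller than the spread of either between libraries. The exon lengths are those of a later annotation of GRCh37 than the one that was counted.

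Under the H929 labels, ADM was lower in the THZ1 libraries while EGLN3, BNIP3, NDRG1 and ANKRD37 were higher. The same rule called 33.1% of 14863 genes higher and 32.6% lower there, beside 4 and 1 of the 9 genes. The summed plasma cell markers also differed between these labels, as given above, and their part in the values that follow was not tested. Counts of ADM were 612 and 506 in the libraries labelled DMSO and 133 and 157 in those labelled THZ1. The groups did not overlap, and ADM was 3.97-fold lower (log2 fold change -1.99 ± 0.123 SE, edgeR adjusted p = 3.41e-10). DMSO replicate 2 had more FGFR3 than replicate 1, as given above, and leaving out any 1 of the 4 libraries left ADM between -2.11 and -1.86. BNIP3 had 330 and 294 counts against 636 and 681, a log2 fold change of 1.03 ± 0.092 SE (edgeR adjusted p = 3.44e-08), from a level far above that of JJN3. NDRG1 had 2807 and 2564 counts against 5616 and 5115, a log2 fold change of 0.95 ± 0.0578 SE (edgeR adjusted p = 2.8e-10).

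EGLN3 had only 2 and 1 counts in the H929-labelled controls beside 21 and 17 in the libraries labelled THZ1, a ratio of 12.4 with a 95% exact counting interval of 3.94 to 62.8 (edgeR adjusted p = 5.15e-05). ANKRD37, with 42 and 25 counts against 54 and 51, was called at log2 0.60 ± 0.269 SE with an edgeR adjusted p of 0.0499. It lost that call in 7 of 11 alternatives, with adjusted p-values up to 0.287, and without DMSO replicate 2 its log2 fold change was 0.31. HIF1A went from 2315 and 2112 counts (DMSO) to 1777 and 1762 (THZ1), a log2 fold change of -0.37 ± 0.0568 SE that passed the adjusted p (1.94e-05, edgeR) and not the fold limit. VEGFA had 1518 and 1384 counts against 1165 and 1193, and likewise passed only the adjusted p (log2 fold change -0.34 ± 0.0633 SE, edgeR adjusted p = 0.000113). EGLN1, at 1582 and 1437 counts against 1694 and 1726, had a log2 fold change of 0.13 ± 0.0597 SE, and EPAS1, at 101 and 112 against 93 and 81, one of -0.34 ± 0.175 SE.

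**Figure D2:**
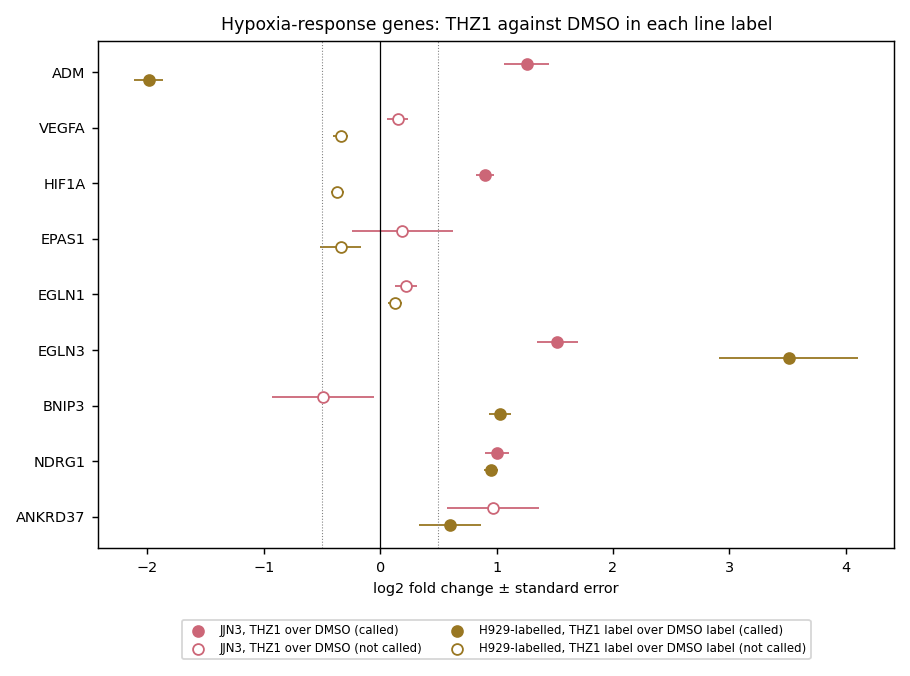
Log2 fold change of each gene, THZ1 over DMSO, with its standard error, in JJN3 (red) and between the H929 labels (brown). Filled points were called and open points were not, dotted lines mark log2 fold changes of 0.5 on either side of 0. ADM lies at 1.26 in JJN3 and at -1.99 between the H929 labels, while NDRG1 lies at 1.00 and 0.95.

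The change of ADM was opposite in direction under the 2 line labels. Tested directly over all 8 libraries, the log2 fold change of ADM in JJN3 minus that between the H929 labels was 3.24 ± 0.226 SE (edgeR adjusted p = 3.74e-09). HIF1A also differed, by 1.26 ± 0.0949 SE (edgeR adjusted p = 9.19e-09), and so did VEGFA by the adjusted p alone, at 0.48 ± 0.114 SE (edgeR adjusted p = 0.00161). EGLN3 and BNIP3 differed the other way, by -2.00 ± 0.673 SE (edgeR adjusted p = 0.0169) and -1.53 ± 0.41 SE (edgeR adjusted p = 0.004). The EGLN3 difference lost its call without H929 DMSO replicate 2 (-1.66, adjusted p = 0.0901). NDRG1 had a difference of 0.04 ± 0.112 SE and EGLN1 one of 0.08 ± 0.116 SE, and the sign of both depended on the scaling and the filter. In all, 4 of the 9 genes were called in this test, 2 in each direction, where 53.7% of all genes were called in either direction, so their share is near the background. By the adjusted p alone 5 of the 9 passed, beside 62% of all genes.

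Between lines, ADM was called in the DMSO libraries and was not called in the THZ1 libraries. In the DMSO libraries, ADM stood at 3.69 and 4.38 CPM in JJN3 and at 32.8 and 27.9 CPM under the H929 label, 7.68-fold lower in JJN3 (log2 fold change -2.94 ± 0.155 SE, edgeR adjusted p = 5.56e-11). In the THZ1 libraries it stood at 8.18 and 10.1 CPM against 7.08 and 8.35 CPM, and the groups overlapped (log2 fold change 0.30 ± 0.16 SE, edgeR adjusted p = 0.0974). The order of its 4 group levels was therefore JJN3 DMSO, H929-labelled THZ1, JJN3 THZ1 and H929-labelled DMSO, with the middle groups not separated beyond their spread.

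With DMSO, 4 of the 9 genes were lower in JJN3 and 2 higher, where 30.8% of 16122 genes were called lower and 30.7% higher. BNIP3 stood at 0.759 ± 0.106 CPM in JJN3 and 16.9 ± 1.06 CPM (SD, n = 2) under the H929 label, and EPAS1 at 0.55 ± 0.033 CPM and 5.79 ± 0.533 CPM (SD, n = 2). EGLN1 was lower by a smaller step, with a log2 fold change of -0.63 ± 0.0825 SE (edgeR adjusted p = 3.53e-06). NDRG1 was 5.17-fold higher in JJN3 (log2 fold change 2.37 ± 0.0829 SE, edgeR adjusted p = 4.46e-13), and EGLN3 had 142 counts in the JJN3 pair against 3, a ratio of 45.7 with a 95% exact counting interval of 15.3 to 224. HIF1A, VEGFA and ANKRD37 were not called between the DMSO groups, at log2 fold changes of -0.12, -0.30 and -0.69. With THZ1, 3 genes were higher in JJN3 and 3 lower, beside 32.3% and 31.6% of all genes. HIF1A joined the higher ones there, at 200 and 203 CPM against 94.6 and 93.7 CPM (log2 fold change 1.15 ± 0.0673 SE, edgeR adjusted p = 2.13e-10), and BNIP3 was 65.4-fold lower.

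The rest of the HIF machinery was followed in a list of 15 genes, 13 of them tested in JJN3. With THZ1, 4 of the 13 rose and none was called lower, beside 20.6% and 21.3% of all genes, with a median log2 fold change of 0.19 against 0.00 over all genes. At an unadjusted p under 0.05, 2 of them had a fall in edgeR, and DESeq2 called 0 lower. The coactivator genes CREBBP and EP300 rose by log2 1.15 ± 0.0991 SE and 0.94 ± 0.0811 SE, and CITED2, whose product competes with the HIF α subunits for these coactivators, rose by 0.95 ± 0.0873 SE (edgeR adjusted p at most 6.75e-06). CREBBP went from 1454 and 1227 counts to 2614 and 2574. ARNT, the partner subunit, had a log2 fold change of 0.26 ± 0.0852 SE, VHL, the recognition subunit of the ubiquitin ligase, 0.30 ± 0.0773 SE, HIF1AN, the asparaginyl hydroxylase, -0.12 ± 0.0986 SE and EGLN2 -0.15 ± 0.28 SE, none of them called. Under the H929 labels, 4 of 14 were higher and 2 lower, beside 33.1% and 32.6% of all genes, with ARNT among the higher at 2121 and 1999 counts (DMSO) beside 6012 and 5921 (THZ1).

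Of 48 further HIF target genes, 42 were tested in JJN3, where 6 rose, 10 fell and 26 were not called. The median log2 fold change was 0.08, beside 0.00 over all genes, 20.6% of them higher and 21.3% lower. PLOD2, a collagen lysyl hydroxylase, rose by 1.14 ± 0.0775 SE, MXI1, an antagonist of MYC, by 1.00 ± 0.0803 SE and the repressor BHLHE40 by 0.80 ± 0.0798 SE on the log2 scale (edgeR adjusted p at most 1.13e-05). BNIP3L, the paralog of BNIP3, was at 1291 and 1316 counts in controls and 1713 and 1850 after THZ1 (log2 fold change 0.64 ± 0.0771 SE, edgeR adjusted p = 3.85e-05), beside a BNIP3 that was near the floor.

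The falls took in the stanniocalcin gene STC2, which went from 1250 and 1315 to 371 and 381 counts (log2 fold change -1.58 ± 0.0917 SE, edgeR adjusted p = 8.42e-07), and VLDLR, a lipoprotein receptor, from 27 and 39 counts to 8 and 18 (-1.15 ± 0.411 SE, edgeR adjusted p = 0.0317). The glucose transporter SLC2A1 fell from 686 and 651 to 304 and 331 counts (log2 fold change -0.88 ± 0.103 SE, edgeR adjusted p = 3.17e-05), and the phosphofructokinase PFKP fell by 0.99 on the log2 scale (SE 0.129). LDHA and HK2, named after their values were seen, fell from 31980 and 34125 counts to 13638 and 16167 and from 1008 and 901 counts to 430 and 475. Other glycolysis genes of the list, likewise named afterwards, were not called. Their log2 fold changes were 0.42 for PGAM1, 0.40 for GPI, 0.20 for PGK1, 0.19 for TPI1, 0.13 for ENO1 and -0.11 for ALDOA. SLC16A3, also named afterwards, was called higher, at 0.75 ± 0.231 SE. PDK1, with a log2 fold change of -0.36 ± 0.089 SE, and the mTORC inhibitor DDIT4, with -0.14 ± 0.244 SE, were not called, and CA9 was at 0 counts in all 4 JJN3 libraries, which allows a level of up to 0.172 CPM.

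Under the H929 labels 7 of 44 of these targets were higher and 24 lower, where 33.1% and 32.6% of all genes were. SLC2A1 had 1737 and 1516 counts under DMSO against 415 and 392, and BHLHE40 had 1684 and 1344 against 449 and 420, whereas PDK1 had 1375 and 1434 against 7280 and 7334. CA9, a carbonic anhydrase, was counted 45 and 12 times with the DMSO label and 0 times in both libraries labelled THZ1. Between these labels the median of the targets was -0.57 on the log2 scale, against 0.01 over all genes.

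**Figure D3:**
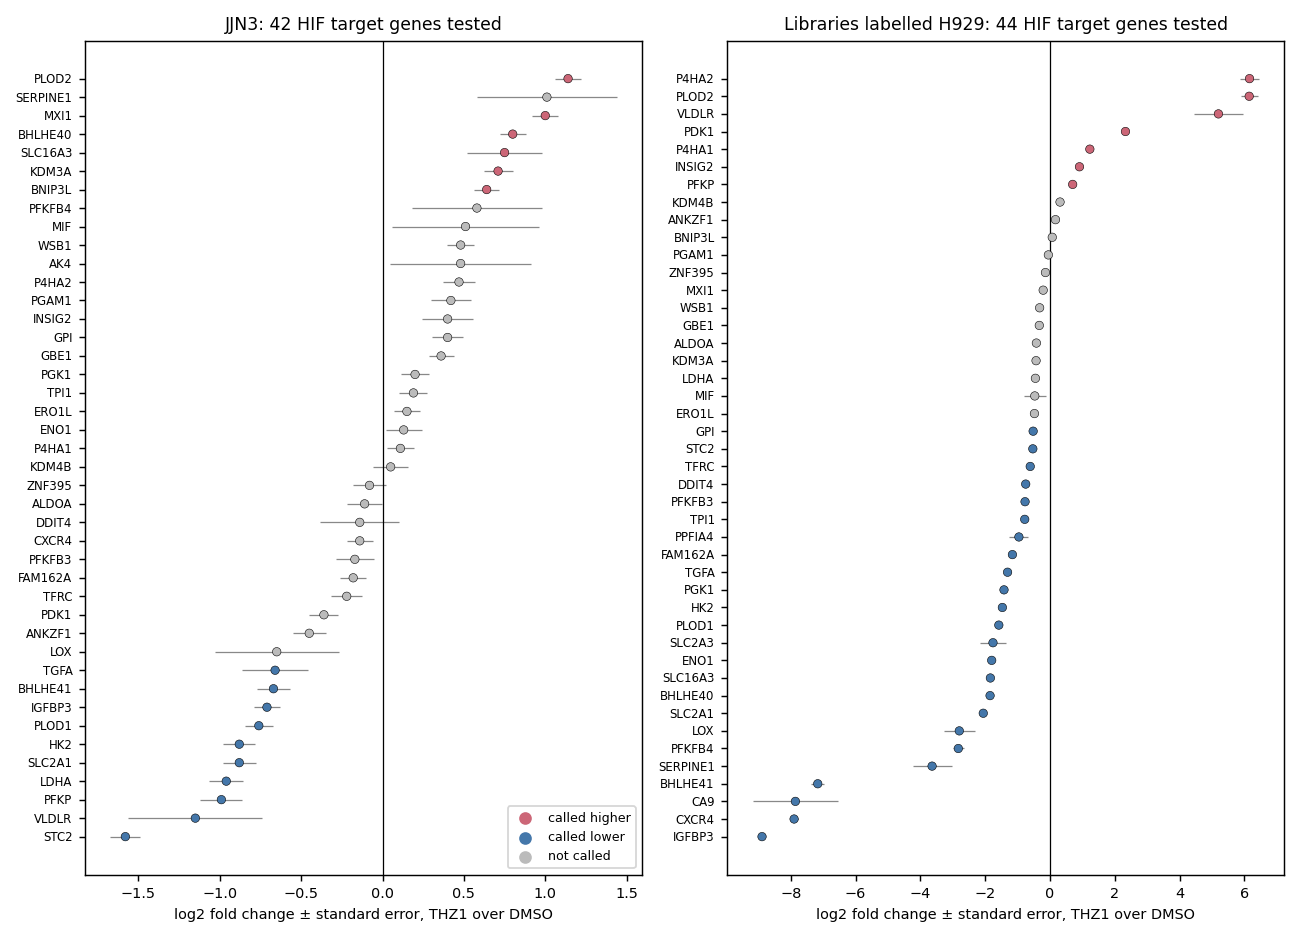
Log2 fold change with its standard error, THZ1 over DMSO, of the HIF target genes tested in JJN3 (left, 42 genes) and between the H929 labels (right, 44 genes), each sorted by value, with different scales on the 2 horizontal axes. Red genes were called higher, blue lower and grey neither. In JJN3 the values run from STC2 at -1.58 to PLOD2 at 1.14, and the fitted value of CA9 on the right is against a group at 0 counts and is no measure of size.

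Receptors for ADM were scarce. ADM signals through CALCRL joined to RAMP2 or RAMP3, and CALCRL had 4 counts in both JJN3 controls and 11 and 7 after THZ1, too few to be tested. RAMP2 fell from 83 and 77 to 34 and 42 counts (log2 fold change -0.88 ± 0.238 SE, edgeR adjusted p = 0.00804) and RAMP1, the partner of CALCRL in the CGRP receptor, from 209 and 190 to 97 and 114 (-0.73 ± 0.16 SE, edgeR adjusted p = 0.00243). RAMP3 had 6 and 10 counts against 4 and 19. ADM2, the related peptide intermedin, fell from 154 and 139 to 23 and 43 counts in JJN3 (log2 fold change -1.96 ± 0.254 SE, edgeR adjusted p = 6.8e-05) in the libraries in which ADM rose. MME, the membrane protease neprilysin that degrades peptide hormones, rose by 0.68 ± 0.108 SE. Of the 15 genes of ADM signalling, 8 were tested in JJN3, with 1 higher and 3 lower, beside 20.6% and 21.3% of all genes, and a median log2 fold change of -0.63 against 0.00. Under the H929 labels, RAMP1, RAMP2 and RAMP3 had between 0 and 4 counts in every library, and CALCRL had 3 counts in both DMSO libraries beside 19 and 16 in the THZ1 libraries.

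Most of the VEGF family beyond VEGFA was too low to test. In JJN3, 3 of 9 genes were tested, with 1 higher beside 20.6% of all genes. VEGFC, a lymphatic growth factor, was called higher (log2 fold change 0.54 ± 0.172 SE, edgeR adjusted p = 0.0178). It had 173 and 151 control counts beside 169 and 246 treated ones. These raw counts overlapped, but the scaled levels did not, at 9.11 and 7.87 CPM against 10 and 13.4 CPM. The receptor genes FLT1, KDR and NRP1 had at most 5 counts in any of the 8 libraries. The coreceptor gene NRP2, named after its values were seen, was detected, at 1193 and 1190 counts in the JJN3 controls and 1161 and 1295 after THZ1 (log2 fold change 0.24 ± 0.0789 SE, not called). Between the H929 labels NRP2 was at 508 and 483 counts under DMSO beside 15 in both THZ1 libraries (log2 fold change -5.08 ± 0.173 SE, edgeR adjusted p = 2.52e-13).

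The genes whose level ran most like that of ADM over the 8 libraries were REPS2 (r = 0.992), MAGI1 (0.991), MIB2 (0.99), LUZP1 (0.988) and BMPR2 (0.988), out of 16121 genes compared on log2 CPM. REPS2 stood at 4.79 and 5.94 CPM in the JJN3 controls, 8.66 and 9.22 CPM in JJN3 with THZ1, 20.8 and 16.6 CPM under the H929 DMSO label and 7.5 and 7.5 CPM under the H929 THZ1 label. These values describe 8 libraries in 4 groups, so r mainly reflects the order of 4 group means, and by Spearman's rho only 1 of the 5 was among the closest, MAGI1 (rho = 0.976). Of the other 8 hypoxia-response genes, VEGFA was the nearest to ADM by Pearson's r (r = 0.81, rho = 0.74) and EPAS1 by Spearman's rho (r = 0.68, rho = 0.81). HIF1A had an r of 0.09 with ADM and a rho of 0.43. EGLN3 (r = -0.76, rho = -0.45) and NDRG1 (r = -0.66, rho = -0.48) ran against ADM, less so by rho.

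**Figure D4:**
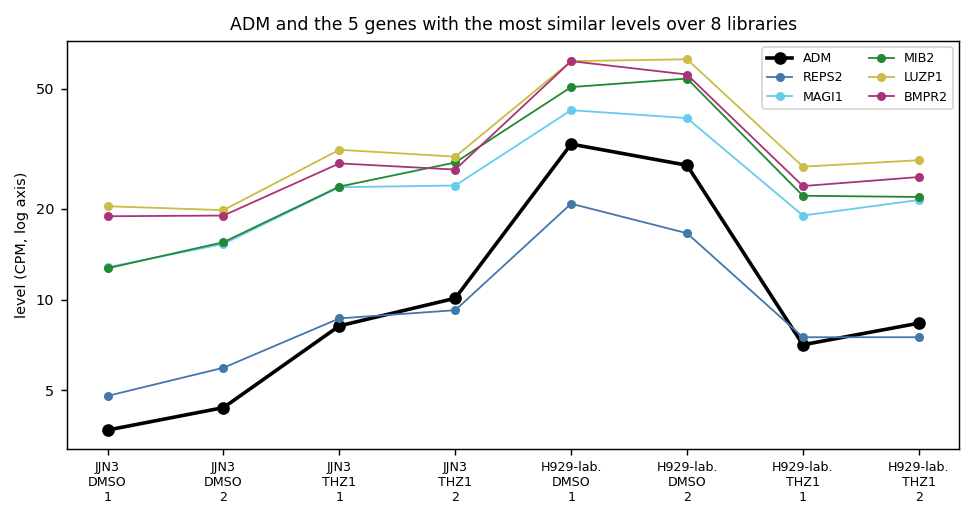
Level in CPM (log axis) of ADM (black) and of the 5 genes with the highest r with it, in each of the 8 libraries, which are joined by lines only to guide the eye. All 6 genes are lowest in the JJN3 DMSO libraries and highest under the H929 DMSO label, where ADM stood at 32.8 and 27.9 CPM.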

How the data were processed

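RNA-seq measured 8 libraries labelled JJN3 or H929 and THZ1 or DMSO, grouped by those labels. The authors aligned single-end reads to hg19 with STAR 2.5.2a, kept unique reads and deposited raw counts per Ensembl gene made with featureCounts, whose strand setting is not stated. The authors also deposited tables of their DESeq2 1.12.4 comparisons (mean, log2 fold change, test statistic, p-value), which were not used except for the gene symbols that the JJN3 table pairs with the IDs.

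From the counts, edgeR 4.0.16 in R 4.3.3 (TMM, filterByExpr, quasi-likelihood test, Benjamini-Hochberg adjustment over all genes) compared THZ1 with DMSO within each line on its 4 libraries. The difference of response and the comparisons between lines were fitted on all 8, so CPM, scaled over 8 libraries, can give slightly other ratios than a fit within a line. A call required an adjusted p under 0.05 and a log2 fold change beyond 0.5. Total counts per library were 17476443 to 19194371. Intervals and floors cover counting error only. The fits were run on simulated counts in which 200 genes were changed, far fewer than were called in these data. That run does not check the scaling where so many genes change.

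The 9 genes and the gene lists were chosen with earlier results of these data known. Named are all 9 genes and, from each list, the 3 largest falls and rises called in JJN3, CALCRL, RAMP1, RAMP2, RAMP3, FLT1, KDR, NRP1, EGLN2, HIF1AN, VHL, ARNT, ADM2, CA9, SLC2A1, PDK1, BNIP3L and DDIT4 whatever their value, and the 5 genes with the highest Pearson r with ADM (log2 CPM, prior count 0.5). The alternatives were DESeq2 1.42.0, other scalings, filters and fold limits, all libraries in one fit, a replicate block and leaving out each library. Exon lengths and positions came from GENCODE on GRCh37, and promoter sequences from RefSeq on GRCh38.p14.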

Additional observations from a re-analysis of the deposited data

Results flagged for a closer look

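For 5 of the 9 genes the change with THZ1 in JJN3 differed from the change between the H929 labels in the direct test over 8 libraries (edgeR adjusted p under 0.05), a limit that 62% of all genes passed. The difference, on the log2 scale and as JJN3 minus H929, was 3.24 for ADM (adjusted p = 3.74e-09), 1.26 for HIF1A (adjusted p = 9.19e-09), 0.48 for VEGFA (adjusted p = 0.00161), -2.00 for EGLN3 (adjusted p = 0.0169) and -1.53 for BNIP3 (adjusted p = 0.004). The EGLN3 difference missed the limit without H929 DMSO replicate 2 (-1.66, adjusted p = 0.0901). The libraries labelled H929 THZ1 and H929 DMSO also differed in FGFR3 and IGLC3, and a response to THZ1 cannot be told apart there from a different source of cells.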

How the results depend on the processing

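Of 519 values of single genes recomputed under an alternative, 489 kept their direction and their side of the threshold, 9 lost a call, 9 gained one and 12 changed sign. ADM was called higher in JJN3 and lower between the H929 labels under every alternative run. With a log2 limit of 1, 2 genes were higher in JJN3 and 2 between the H929 labels. No share of all genes was counted at that limit, so these counts cannot be set against a background. With the adjusted p alone, 3 of the 9 genes were lower and 5 higher between the H929 labels, and 0 were lower and 4 higher in JJN3. In either direction, the adjusted p alone passed 8247 of 13984 genes in JJN3 and 12176 of 14863 between the H929 labels. Between lines it passed 12099 of 16122 genes with DMSO and 12354 of 16122 with THZ1. For the difference of response, leaving out 1 library gave 1 to 2 genes called lower (1 without H929 DMSO replicate 2). The sign changes were in values that were not called. With total counts in place of TMM the difference was -0.06 for EGLN1 and -0.11 for NDRG1, and with no filter -0.01 and -0.05. Total counts moved the median of all genes in the difference from -0.04 to -0.18, and in JJN3 from 0.00 to -0.10. Leaving out 1 library gave differences of -0.04 to 0.15 for EGLN1, -0.06 to 0.09 for NDRG1 and -0.24 to 0.73 for ANKRD37, and -0.92 to 0.03 for ANKRD37 between the THZ1 groups. With the adjusted p alone, list counts in JJN3 became 12 HIF targets, 2 ADM signalling genes and 2 VEGF family genes higher and 1 gene of the HIF machinery lower, DESeq2 called 2 ADM signalling genes higher, and between the H929 labels 5 of the machinery were lower and 2 ADM signalling genes higher. In the comparisons between lines the adjusted p alone gave 1 VEGF family gene lower with DMSO and 7 of the machinery lower with THZ1. These list counts are each for a single direction, whereas the numbers of all genes above are for either direction, so they cannot be compared directly. For HIF targets in JJN3, 12 were higher and 12 lower at the adjusted p alone, of 42 tested. Same-numbered libraries did not deviate together (r = -0.06 under both line labels). Paired cultures without a large shared effect could give the same value, so the check cannot decide whether the numbers pair samples. A replicate block called ANKRD37 in JJN3 (0.93, adjusted p = 0.0407), giving 5 genes higher, and 3013 genes lower and 2889 higher overall there. A filter of 1 CPM in 2 libraries left out EPAS1 and BNIP3 in JJN3 and EGLN3 between the H929 labels, so these had no value. At this depth, changes of genes near the floor, such as EPAS1 and BNIP3 in JJN3, were detectable only if larger than their counting intervals.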
